A study of Mus musculus with 4 samples.

Results

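Interferon-stimulated antiviral genes were followed through 4 cell fractions sorted from mouse bone marrow. The group is a written list of 37 genes whose transcription is known to respond to interferon: RNA sensors, RNA-degrading and RNA-binding effectors, the ISG15 modifier system, ADP-ribosyltransferases and GTPases. Of the 37 genes, 34 had a probe that could be named through the gene table, out of 20284 named genes in all, and 33 of these were detected, that is, well above background in 1 fraction or more, out of 13753. On all 4 arrays, 30 did. Oas1b, Mx1 and Mx2 had no probe named through the table, which gives all 3 as transcribed pseudogenes of the reference strain, and both Oas1g probes stayed below that level on every array.

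The cells came from 8-week-old female C57BL6 mice, and each fraction was read on 1 Agilent array. Haematopoietic stem cells of the long-term type (LT-HSC) were negative for CD34 and lineage markers and positive for c-Kit and Sca-1, and short-term stem cells (ST-HSC) had the same markers with CD34. The progenitor label names cells with c-Kit and without lineage markers. A sorting text shared by all samples describes them as Sca-1-negative and also names lineage-positive cells, so their gate is uncertain. The last fraction was lineage-positive (Lin+), a mixture of differentiated blood cells. The labels name no treatment of any fraction. The number of mice per fraction is not given in the sources used here.

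Levels are log2 signals relative to each array's 75th percentile, so 0 is that percentile, and they compare arrays for 1 gene and not genes with each other. A difference is the later fraction minus the earlier, its ± is the spot error of the scanner software, and that error does not cover the spread between mice. A gene is called higher or lower when the fractions differ 2-fold or more and the brighter value is well above background. With 1 array per fraction there is no replicate check, no test and no p-value for any value given here. Each fraction is a mixture, so fewer cells of a type and less RNA per cell cannot be told apart.

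Type I interferons bind the IFNAR1 and IFNAR2 receptor chains, whose kinases JAK1 and TYK2 phosphorylate STAT proteins, STAT2 among them. A complex of these with IRF9 binds the interferon-stimulated response element (ISRE) near the start of its target genes, while interferon gamma acts through another element, GAS. Interferon alpha is known to drive dormant stem cells of mouse marrow into division, and stem cells of several tissues are known to express some interferon-stimulated genes without added interferon.

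RefSeq promoters of build GRCm38.p6, from 250 bases before to 50 bases after each annotated start, were available for 26 of the 37 genes. Mx1, Mx2, Oas1b, Oas2, Dhx58, Parp9, Parp14, Usp18, Zbp1, Ifi27 and Rtp4 were not among them. The ISRE letters searched were GAAANNGAAA on the sense strand and TTTCNNTTTC for the other strand, with overlapping matches counted. They occurred in 15 of 26 listed genes (57.7%), against 1079 of 27025 genes in the promoter table (3.99%) and 433 of 11001 detected genes (3.94%). At least 2 matches occurred in 7 of 26 listed genes (26.9%), against 72 of 27025 (0.266%). The GAS letters TTCNNNGAA occurred in 6 of 26 (23.1%), against 9.55% of genes in the table. The stretches below are shown because these genes carry the differences described next, with ISRE matches in capitals and 10 bases on either side; Bst2 and Oas1a are shown because they hold the same letters and did not differ 2-fold between any fractions compared.
Isg15, chr4:156200865-156200906, minus strand: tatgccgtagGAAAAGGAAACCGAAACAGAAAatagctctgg
Ifit1, chr19:34640775-34640823, plus strand: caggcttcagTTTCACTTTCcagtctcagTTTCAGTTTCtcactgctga
Ifit3, chr19:34583363-34583426, plus strand: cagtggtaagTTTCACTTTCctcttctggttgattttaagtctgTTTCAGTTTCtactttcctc
Rsad2, chr12:26456553-26456582, minus strand: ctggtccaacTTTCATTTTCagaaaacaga
Ddx58, chr4:40239804-40239833, minus strand: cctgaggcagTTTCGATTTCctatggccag
Gbp2, chr3:142620594-142620623, plus strand: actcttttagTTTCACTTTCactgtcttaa
Oas3, chr5:120777715-120777744, minus strand: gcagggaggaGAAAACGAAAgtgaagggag
Oas1a, chr5:120907520-120907555, minus strand: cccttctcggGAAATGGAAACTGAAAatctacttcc
Bst2, chr8:71537577-71537612, minus strand: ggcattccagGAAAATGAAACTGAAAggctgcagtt

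The 24 matches lay in 15 genes, 20 of them before the annotated start and 4 after it. Isg15 held 3 overlapping copies, beginning 78, 72 and 66 bases before the start. Oas1a and Oas1g, near-identical neighbours, shared 36 of 36 bases over the stretch shown for Oas1a, although both Oas1a probes were well above background on every array and neither Oas1g probe was on any. A match describes letters in this window and is neither a shown binding site nor a cause.

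**Figure D1:**
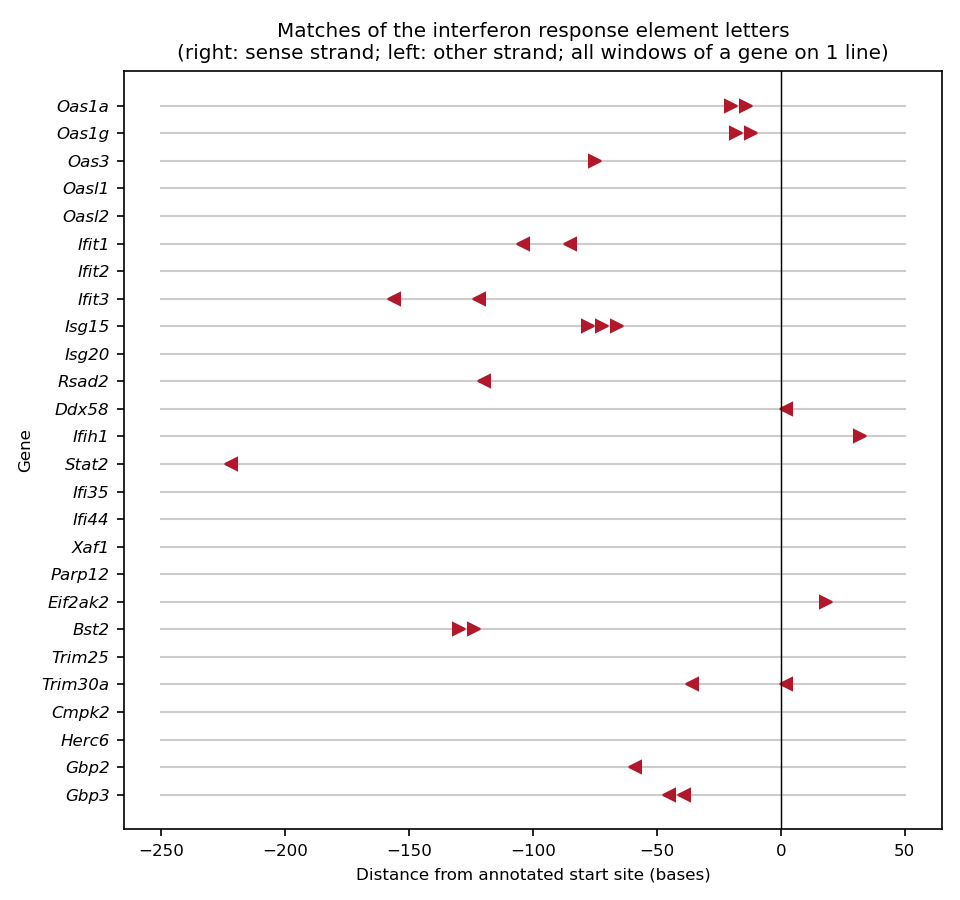
Positions of the ISRE letters in the promoter windows of the 26 listed genes with a RefSeq promoter, as distance from the annotated start site in bases; right-pointing marks are on the sense strand and left-pointing marks on the other. Of the 24 matches, 20 lie left of the start site, and 11 genes have an empty line.

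The listed genes were mostly lowest in progenitors. Of the 33 genes, 24 had their lowest level on the progenitor array, 4 on the Lin+ array (38.7% of all genes), 3 on the ST-HSC array (11.7% of all genes) and 1 on the LT-HSC array (18.6%), and Ifi44 could not be placed because its progenitor value was a bound. Among all 13753 genes, 13.3% were lowest on the progenitor array. The highest level was on the LT-HSC array for 18 of the 33 genes, against 22.8% of all genes, and on the Lin+ array for 6, against 24.9%. The ST-HSC array held the highest level of 6 genes, where 15.2% of all genes had theirs, and the progenitor array that of 3, where 35.1% did. A highest or lowest level needed no margin, and some LT-HSC leads were within the spot error. Examples are Usp18 (-0.04 ± 0.20) and Parp9 (-0.03 ± 0.20) in ST-HSC against LT-HSC. The counts of highest levels were not repeated under the alternative settings. Because the progenitor array enters both the comparison with ST-HSC and that with Lin+ cells, those comparisons are not independent.

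**Figure D2:**
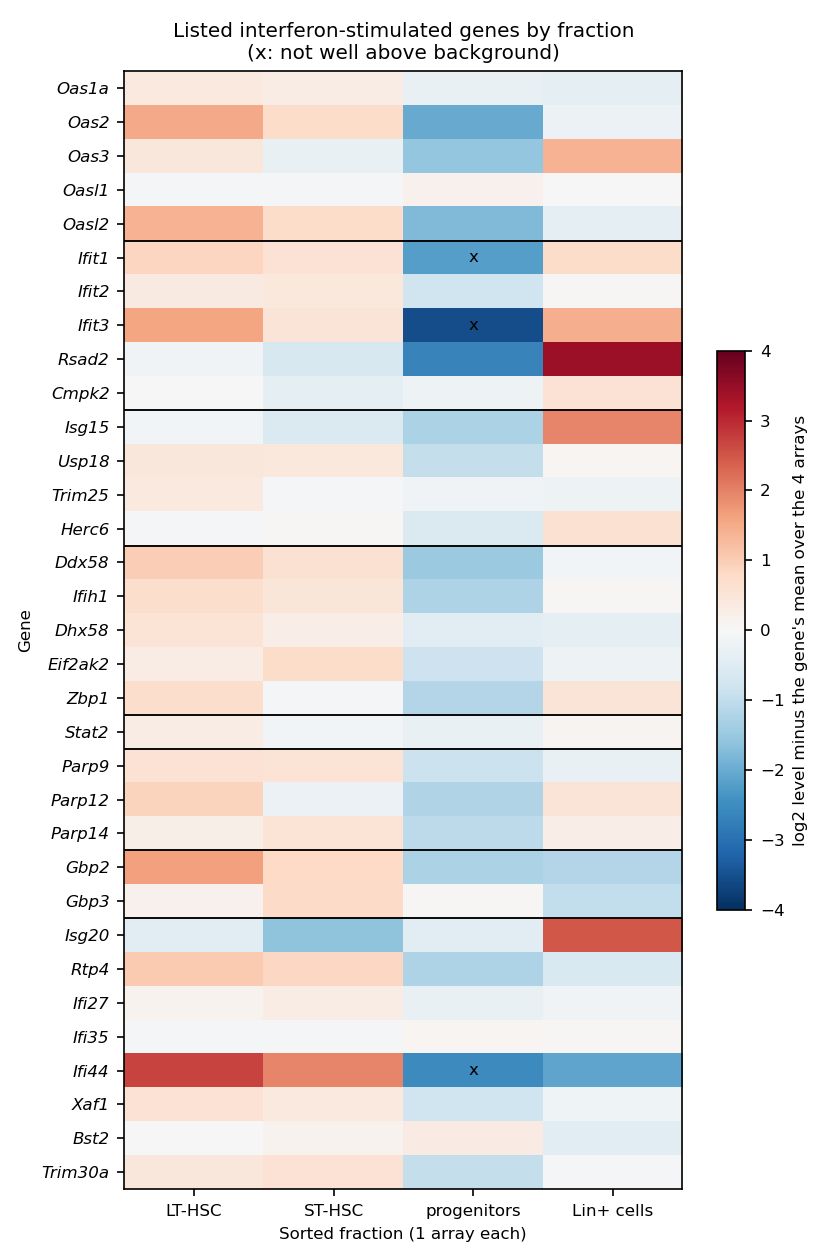
Level of each of the 33 detected genes on the 4 arrays, as log2 level minus the gene's own mean, grouped by role between the black lines; x marks a value not well above background. Blue (below the gene's mean) prevails in the progenitor column, where 24 of the 33 genes are lowest.

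Interferon RNAs themselves gave little signal. Of 21 ligand genes listed, 16 were on the array, and Ifnb1, which encodes interferon beta, was not well above background in any fraction. Ifna2, an interferon alpha gene, was well above background at -0.89 in LT-HSC and -2.34 in progenitors and was not in ST-HSC or Lin+ cells, which made it at least 5.65-fold lower in ST-HSC than in LT-HSC. The alpha genes are close copies of each other, and probe specificity was not examined. Ifng, which encodes interferon gamma, reached 0.33 in Lin+ cells and was below background in the other fractions, so it was at least 9.20-fold higher in Lin+ cells than in progenitors. Ifnl3, a type III interferon, lay at -2.01 in LT-HSC and -2.29 in ST-HSC, -1.77 in progenitors, and 0.11 in the Lin+ fraction.

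RNAs of receptors and signal carriers mostly differed by less than 2-fold. Ifnar1 lay at 1.90 in LT-HSC and 1.78 in ST-HSC, 1.32 in progenitors, and 1.86 in the Lin+ fraction, and Ifnar2 at 3.26, 3.62, 3.48 and 3.70 in the same order. Neither differed 2-fold in any comparison. Irf9, the DNA-binding partner in the STAT complex, lay at 4.52, 4.07, 3.99 and 4.39. Stat2, the listed signal transducer, had levels of 2.38, 1.99, 1.78 and 2.18, and its largest difference was 0.40 ± 0.20 for Lin+ cells over progenitors. Of 12 receptor and signal carrier genes, 10 could be compared between progenitors and ST-HSC. Among these, 1 was higher (10%) and 1 lower (10%), near the shares of all compared genes (10% and 10.2%). The higher gene was Ifngr1, a chain of the interferon gamma receptor, at 1.55 ± 0.20, and the lower was Jak1 at -1.28 ± 0.20.

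The RNA and nucleic acid sensors were lower in progenitors than in ST-HSC for 4 of 5 genes. In that comparison 10.2% of all compared genes were lower. Ddx58, which encodes the viral RNA sensor RIG-I, lay at 3.95 in LT-HSC and 3.56 in ST-HSC, 1.49 in progenitors, and 2.84 in the Lin+ fraction. Its progenitor level was below the other 3, by -2.07 ± 0.20 against ST-HSC. Ifih1, which encodes MDA5, a sensor of long viral RNA, lay at 1.91, 1.70, -0.01 and 1.27, a difference of -1.71 ± 0.21 between progenitors and ST-HSC. A second, dimmer Ifih1 probe was below background on all arrays, and with the mean of both probes this difference was -0.60 and that of Lin+ cells from progenitors 0.34. Eif2ak2, which encodes the RNA-activated kinase PKR, lay at 0.04, 0.48, -1.08 and -0.47 (-1.56 ± 0.22 in progenitors). Zbp1, a sensor of Z-form nucleic acid that can start cell death, lay at 2.91, 2.17, 1.06 and 2.74 (-1.11 ± 0.21 in progenitors). Dhx58, which encodes the RIG-I relative LGP2, lay at 2.07, 1.81, 1.08 and 1.18 and differed by less than 2-fold in every comparison. In Lin+ cells 3 of the 5 sensors were higher than in progenitors: Zbp1 by 1.68 ± 0.21, Ddx58 by 1.35 ± 0.20 and Ifih1 by 1.28 ± 0.21. Of all compared genes, 14.5% were higher in Lin+ cells than in progenitors.

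The OAS family includes enzymes that answer double-stranded RNA by making the oligoadenylates that switch on RNase L. Its 5 detected genes split into a set of 3 that was lower in progenitors and a pair that stayed under 2-fold. Of all compared genes, 10.2% were lower in progenitors than in ST-HSC and 14.5% higher in Lin+ cells than in progenitors. Oas2 lay at 3.31 in LT-HSC and 2.51 in ST-HSC, -0.21 in progenitors, and 1.55 in the Lin+ fraction. Oas3 lay at 0.18, -0.56, -1.81 and 1.12, with its highest value in Lin+ cells. Oasl2, an OAS-like gene, lay at 4.48, 3.82, 1.33 and 2.73. All 3 were lower in progenitors than in ST-HSC, by -2.72 ± 0.21 for Oas2, -2.49 ± 0.20 for Oasl2 and -1.25 ± 0.27 for Oas3, and higher in Lin+ cells than in progenitors, by 1.76 ± 0.21, 1.39 ± 0.20 and 2.93 ± 0.27. Oas1a lay at 5.74, 5.66, 5.04 and 4.99, and Oasl1, known in mouse as a brake on Irf7 translation, at 3.26, 3.28, 3.53 and 3.35. Neither reached 2-fold in any comparison. Oasl1 and Oasl2 are next to each other on chromosome 5 of GRCm38.p6, as are Oas2 and Oas3, and of these 4 genes Oasl1 alone stayed under 2-fold.

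The IFIT genes, whose proteins bind foreign RNA ends, were lowest in progenitors. Ifit1 lay at -1.004 in LT-HSC, -1.30 in ST-HSC and -1.14 in Lin+ cells, and was not well above background in progenitors. Ifit3 lay at -0.03, -1.12 and -0.16 in those fractions, and was likewise not well above background in progenitors. Against ST-HSC, progenitors were at least 2.97-fold lower for Ifit1 and at least 3.37-fold lower for Ifit3, and Lin+ cells were at least 3.32-fold and 6.52-fold higher than progenitors. Ifit2 lay at -1.07, -1.002, -2.23 and -1.37, a difference of -1.23 ± 0.29 between progenitors and ST-HSC. With normexp background correction, a setting added after the data were seen, the progenitor differences of Ifit1, Ifit2 and Ifit3 from ST-HSC shrank to -0.62, -0.38 and -0.88, all under 2-fold.

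The largest measured difference of the list was that of Rsad2. It encodes viperin, an enzyme that makes a chain-terminating nucleotide, and lay at 1.83 in LT-HSC and 1.33 in ST-HSC, -0.70 in progenitors, and 5.40 in the Lin+ fraction. Progenitors were below ST-HSC by -2.03 ± 0.22, and Lin+ cells were above progenitors by 6.09 ± 0.22, or 68.3-fold. Cmpk2, the next gene on chromosome 12, encodes a mitochondrial nucleotide kinase and lay at 2.19, 1.79, 1.96 and 2.74. Progenitors differed from ST-HSC by 0.17 ± 0.20. Lin+ cells exceeded progenitors by 0.79 ± 0.20 with the brighter Cmpk2 probe and by 1.34 with the other.

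**Figure D3:**
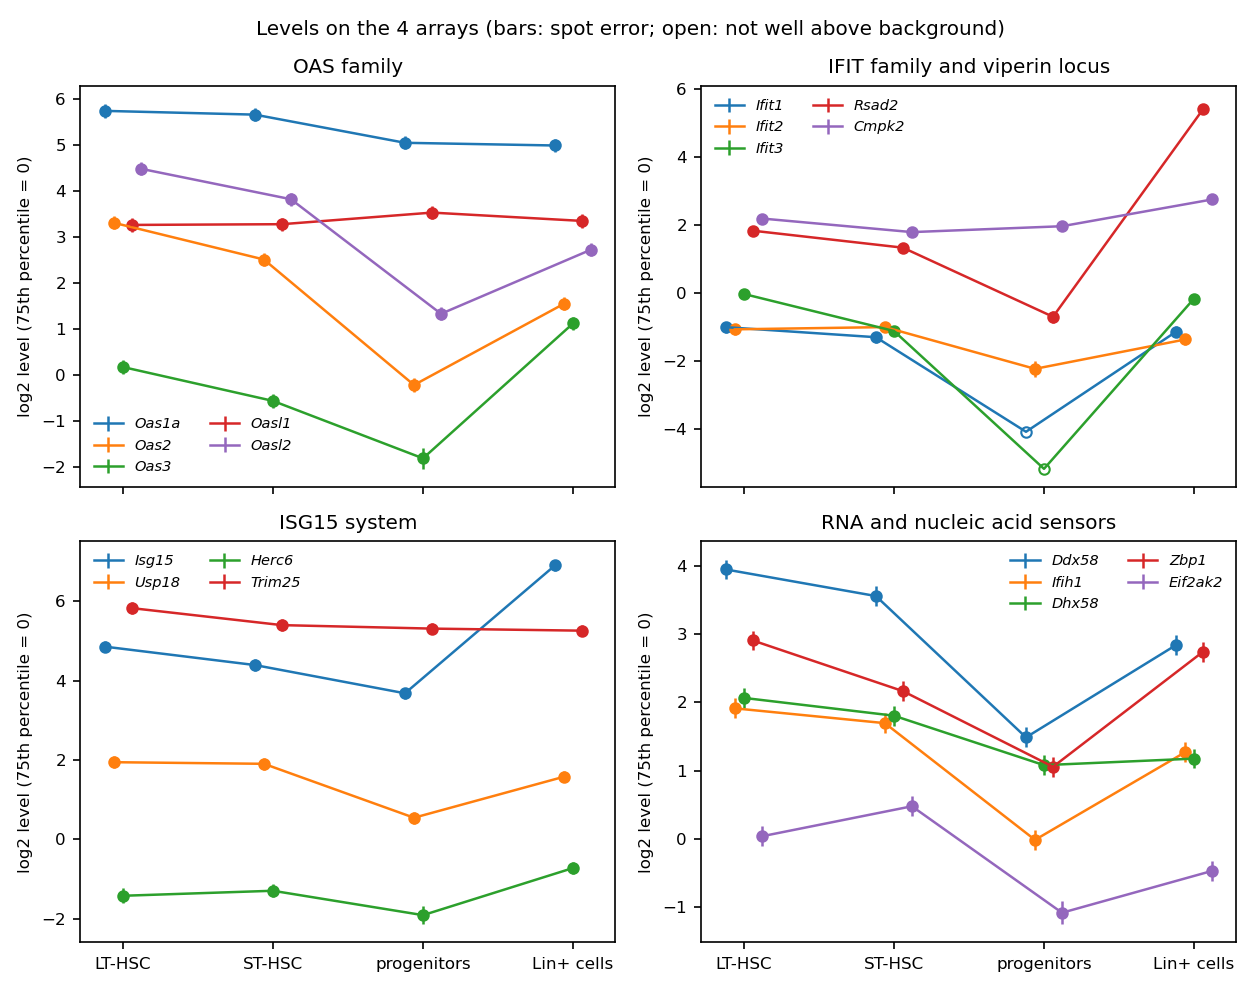
Levels of 19 listed genes on the 4 arrays, in log2 units with the array's 75th percentile at 0; bars are the spot error and open points are not well above background. Oas2, Oasl2, Ddx58, Ifih1 and Rsad2 dip in progenitors, Oas1a, Oasl1, Cmpk2 and Trim25 stay within 2-fold in each comparison, and Rsad2 and Isg15 peak in Lin+ cells.

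The genes of the ISG15 system differed from each other in pattern. Isg15, a ubiquitin-like protein that is attached to other proteins, lay at 4.86 in LT-HSC and 4.40 in ST-HSC, 3.68 in progenitors, and 6.91 in the Lin+ fraction. It was 3.23 ± 0.20 higher in Lin+ cells than in progenitors and 2.05 ± 0.20 higher than in LT-HSC, and its second probe gave 3.52 and 2.21. Usp18, the protease that removes ISG15 and also restrains the interferon receptor, lay at 1.95, 1.91, 0.55 and 1.58. It was -1.36 ± 0.21 in progenitors against ST-HSC and 1.03 ± 0.21 in Lin+ cells against progenitors. Herc6, the main ISG15 ligase known in mouse, lay at -1.42, -1.30, -1.91 and -0.72 and was 1.19 ± 0.27 higher in Lin+ cells than in progenitors. Trim25, a ubiquitin ligase that activates RIG-I, lay at 5.83, 5.40, 5.31 and 5.26 and stayed under 2-fold throughout.

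The 3 PARP genes encode members of the ADP-ribosyltransferase family. Parp14 lay at 2.17, 2.48, 0.91 and 2.23 from LT-HSC to Lin+ cells, and Parp9 at 2.89, 2.86, 1.45 and 2.02. Both were lower in progenitors than in ST-HSC, by -1.57 ± 0.21 and -1.41 ± 0.20. Parp12 lay at 0.42, -0.69, -1.66 and 0.06, was lower in ST-HSC than in LT-HSC by -1.11 ± 0.22, and was higher in Lin+ cells than in progenitors by 1.72 ± 0.26.

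The 2 listed GBP genes, whose GTPases attack compartments that hold pathogens, were both lower in Lin+ cells than in LT-HSC. In that comparison 23.2% of all compared genes were lower. Outside the list, Gbp5 was lower as well (-2.67 ± 0.21). Gbp4 (0.19), Gbp9 (0.47), Gbp6 (-0.13) and Gbp7 (-0.45) differed by less than 2-fold. Gbp2 lay at 3.56 in LT-HSC and 2.70 in ST-HSC, 0.65 in progenitors, and 0.74 in the Lin+ fraction. It differed by -2.06 ± 0.21 between progenitors and ST-HSC and by 0.09 ± 0.21 between Lin+ cells and progenitors. Gbp3, its neighbour on chromosome 3, lay at 2.47, 3.04, 2.35 and 1.29 and was the only listed gene lower in Lin+ cells than in progenitors (-1.06 ± 0.20).

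Of the 8 remaining effectors, 4 were lower in progenitors than in ST-HSC (50%) and 1 was higher (12.5%). Of all compared genes, 10.2% were lower and 10% higher, so the share higher was near that of all genes. Ifi44 lay at 1.71 in LT-HSC, 0.97 in ST-HSC and -3.09 in Lin+ cells and was not well above background in progenitors, so it was at least 14.3-fold lower in progenitors than in ST-HSC and 27.8-fold lower in Lin+ cells than in LT-HSC (-4.80 ± 0.32). Both calls held with normexp background correction, at the smaller differences of -2.05 for progenitors against ST-HSC and -3.11 for Lin+ cells against LT-HSC. Isg20, an exonuclease that degrades RNA, lay at 4.47, 3.30, 4.47 and 7.38, and was the only listed gene 2-fold higher in progenitors than in ST-HSC (1.17 ± 0.20). That call was lost under 6 of the alternative settings, where the difference was 0.544 to 0.9975. Rtp4, a chaperone of membrane receptors, lay at 4.65, 4.42, 2.36 and 2.99 (-2.06 ± 0.20 in progenitors against ST-HSC). Trim30a, known in mouse as a brake on Toll-like receptor signalling, lay at 1.79, 1.93, 0.37 and 1.27 (-1.56 ± 0.21), and Xaf1, which promotes cell death, at 2.59, 2.41, 1.23 and 1.85 (-1.18 ± 0.20). Bst2, the virus tether tetherin, lay at 5.12, 5.29, 5.46 and 4.68, Ifi27 at 6.36, 6.53, 5.93 and 6.10, and Ifi35 at 3.00, 2.97, 3.12 and 3.10. None of these last 3 differed 2-fold in any comparison.

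Between ST-HSC and LT-HSC the list moved little. Of 33 genes, 3 were at least 2-fold lower in ST-HSC and 0 were higher, while 9% of 12617 compared genes were lower and 5.81% were higher, so the share lower (9.09%) was at the background. The 3 were Isg20 (-1.17 ± 0.20), Parp12 (-1.11 ± 0.22) and Ifit3 (-1.09 ± 0.22), and Gbp2 followed at -0.85 ± 0.20. At the other end lay Gbp3 at 0.57 ± 0.20, Eif2ak2 at 0.44 ± 0.21, Parp14 at 0.31 ± 0.20 and Bst2 at 0.17 ± 0.20. The difference was negative for 24 genes and positive for 9, with a median of -0.26 against 0.02 over all genes. Scaled to the spike-in controls, which moved the median of all genes to 0.33, the list's median was 0.05 and 0 of 33 genes were lower. Ddx58 was under 2-fold with its brighter probe (-0.39), which was the one counted, and at -1.28 with the dimmer one.

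Progenitors had less RNA of most listed genes than ST-HSC. Of 33 genes, 19 were at least 2-fold lower (57.6%) and 1 was higher, while 10.2% of 12607 compared genes were lower and 10% were higher. The list's median was -1.23, including 3 bounds, or -1.14 over the 30 measured genes, against 0.17 over all genes. Oas2, Oasl2, Ddx58 and Rtp4 were the lowest measured, at -2.72, -2.49, -2.07 and -2.06, and Isg20, Oasl1, Cmpk2 and Bst2 the highest, at 1.17, 0.25, 0.17 and 0.17. By role, these were 4 of 5 sensors, 4 of 5 IFIT and viperin locus genes, 3 of 5 OAS genes, 2 of 3 PARP genes, 1 of 2 GBP genes, 1 of 4 ISG15 system genes and 4 of 8 other effectors. The calls of Ifit1, Ifit2, Ifit3 and Oas3 were lost with normexp background correction, which left 15 lower, and that of Ifih1 with the mean of its probes. Scaled to the spike-in controls, 26 of 33 listed genes and 3170 of 12607 genes were lower.

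Lin+ cells had more RNA of 15 listed genes than progenitors and less of 1. These were 45.5% and 3.03% of 33, against 14.5% of 12981 compared genes higher and 26.4% lower. The list's median was 0.86, including 2 bounds and Ifi44, which could not be resolved and was entered as 0. It was 0.82 over the 30 measured genes, against -0.33 over all genes. Rsad2, Isg15, Oas3 and Isg20 were the highest measured, at 6.09, 3.23, 2.93 and 2.91, and Gbp3, Bst2, Oasl1 and Oas1a the lowest, at -1.06, -0.78, -0.18 and -0.06. By role, 3 of 5 OAS genes, 3 of 5 IFIT and viperin locus genes, 3 of 4 ISG15 system genes, 3 of 5 sensors, 2 of 3 PARP genes and 1 of 8 other effectors were higher. The number higher was 23 when arrays were scaled to the spike-in controls and 11 with normexp background correction, which took the calls of Ifit1, Parp12, Herc6 and Usp18. The Herc6 call was also lost with the span correction (0.86), and the Gbp3 call was lost under 6 settings, at -0.98 to -0.45.

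Lin+ cells against LT-HSC, the ends of the series, gave a share of calls near or under the background. Of 33 genes, 7 were lower (21.2%) and 3 were higher (9.09%), against 23.2% and 16.1% of 13276 compared genes. The median was -0.37, against -0.15 over all genes. The 3 higher genes were Rsad2 (3.57 ± 0.20), Isg20 (2.91 ± 0.20) and Isg15 (2.05 ± 0.20). Oas3 followed at 0.95 ± 0.21, under 2-fold. Lower were Ifi44 (-4.80 ± 0.32), Gbp2 (-2.81 ± 0.20), Oas2 (-1.76 ± 0.20), Oasl2 (-1.76 ± 0.20), Rtp4 (-1.66 ± 0.20), Gbp3 (-1.18 ± 0.20) and Ddx58 (-1.11 ± 0.20). The split was 4 higher and 5 lower with spike-in scaling, which took the calls of Ddx58 (-0.82) and Gbp3 (-0.90). The Ddx58 probes disagreed in size, since the dimmer one gave -2.72.

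**Figure D4:**
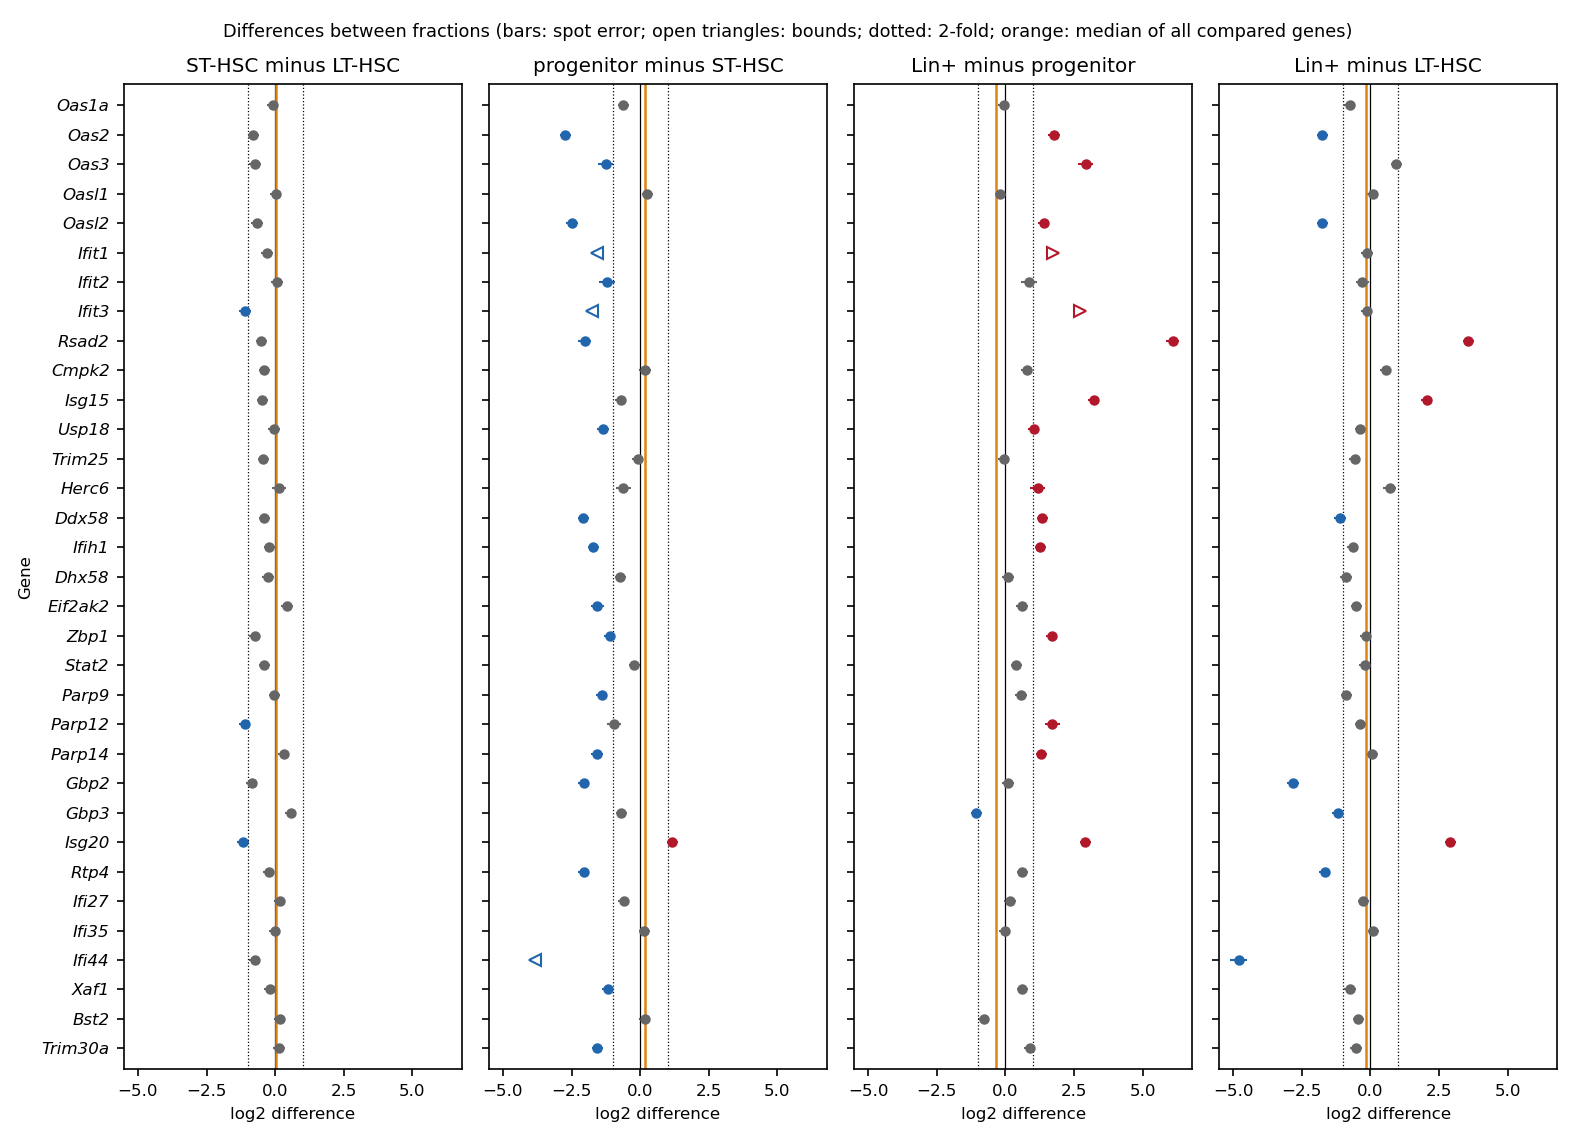
Difference of each of the 33 genes in the 4 comparisons, later fraction minus earlier, in log2 units; bars are the spot error, open triangles are bounds, dotted lines mark 2-fold and the orange line the median of all compared genes. Blue points (lower) number 3, 19, 1 and 7 from left to right and red points (higher) 0, 1, 15 and 3.

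A separate list of 71 other interferon-stimulated genes, none of them among the 37, had 67 on the array. In progenitors against ST-HSC, 17 of 61 were lower (27.9%) and 1 was higher, with a median of -0.57, where 10.2% of all compared genes were lower and 10% higher. The lowest measured were Samd9l at -2.94 ± 0.22, the Schlafen gene Slfn8 at -2.81 ± 0.24, the DNA-sensor family gene Ifi204 at -2.67 ± 0.21 and Tnfsf10, which encodes the death ligand TRAIL, at -2.32 ± 0.21. Slfn2, a Schlafen gene linked to lymphocyte quiescence in mouse, was higher at 1.46 ± 0.22. In Lin+ cells against progenitors, 20 of 66 were higher (30.3%) and 11 were lower (16.7%), with a median of 0.19, where 14.5% of all compared genes were higher and 26.4% lower. The highest measured were Samd9l at 4.36 ± 0.22, Slfn2 at 4.05 ± 0.21, Ube2l6, the conjugating enzyme for ISG15, at 3.97 ± 0.20, and Ifi27l2a at 3.65 ± 0.20. Among the 11 lower were Ifitm1, a membrane protein that blocks virus entry, at -2.35 ± 0.20 and Psmb8 at -1.35 ± 0.20, an immunoproteasome subunit. The shares in the other comparisons lay near or under those of all genes. In ST-HSC against LT-HSC 4.69% of 64 were higher and 10.9% lower, against 5.81% and 9% of all genes, and in Lin+ cells against LT-HSC 12.1% of 66 were higher and 21.2% lower, against 16.1% and 23.2%.

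**Figure D5:**
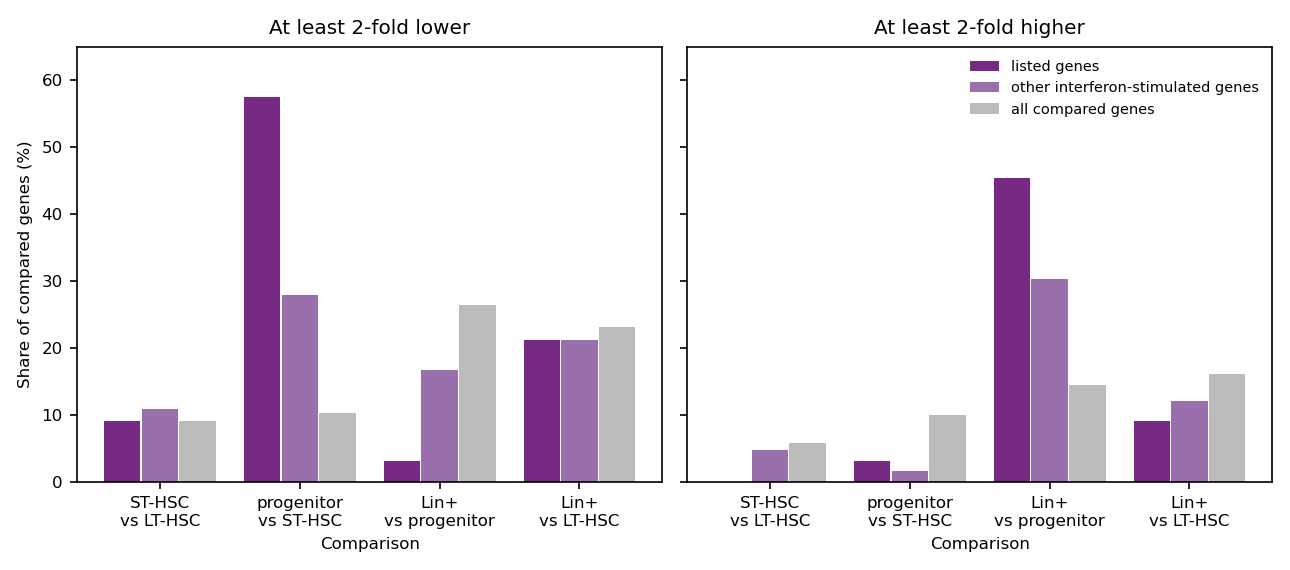
Share of compared genes at least 2-fold lower (left) and higher (right) in each comparison, in percent, for the listed genes, the other interferon-stimulated genes and all compared genes. The listed genes stand at 57.6% lower in progenitors against ST-HSC, where all genes stand at 10.2%, and at 45.5% higher in Lin+ cells against progenitors, where all genes stand at 14.5%.

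Sensing and feedback genes, some of them also among the 37, were mixed. Of 18 compared genes of nucleic acid sensing, which include the listed Ddx58, Ifih1 and Dhx58, 3 (16.7%) were lower in progenitors than in ST-HSC. None was higher, where 10.2% of all compared genes were lower and 10% higher. The 3 were Ddx58, Ifih1 and Aim2, so only Aim2 was outside the list. Aim2, a DNA sensor, was at least 3.98-fold lower. Mb21d1, which encodes the DNA sensor cGAS, was higher in ST-HSC than in LT-HSC by 1.46 ± 0.20. Irf7, which amplifies interferon production, lay at 0.93 in LT-HSC and 0.07 in ST-HSC, -0.76 in progenitors, and 2.11 in the Lin+ fraction, and was 2.86 ± 0.22 higher in Lin+ cells than in progenitors. Of 16 genes that restrain the pathway, Usp18 among them, 6 were higher in Lin+ cells than in progenitors (37.5%) and 0 were lower, where 14.5% of all compared genes were higher and 26.4% lower. Socs1, an inhibitor of JAK kinases, was 2.25 ± 0.21 higher, and Socs3, its relative, 1.62 ± 0.20 higher. In progenitors against ST-HSC, Socs3 differed by -2.03 ± 0.20. Among 9 interferon regulatory factor genes, Irf8, needed for monocytes and dendritic cells, was 2.89 ± 0.20 higher in ST-HSC than in LT-HSC and 1.14 ± 0.20 higher in progenitors than in ST-HSC.

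Listed genes with and without the ISRE letters were set side by side. In progenitors against ST-HSC, 9 of 14 compared genes with a match were lower (64.3%, median -1.56), as were 4 of 11 without (36.4%, median -0.61). Over all compared genes with a promoter, 16.3% of 386 with a match and 9.74% of 9733 without were lower. Leaving out both interferon lists, these shares were 12.8% of 351 and 9.68% of 9689. Of these same genes, 11.7% with a match and 9.88% without were higher. In Lin+ cells against progenitors, 7 of 14 listed genes with a match and 4 of 11 without were higher, with medians of 1.09 and 0.79. Over all compared genes with a promoter, 21.3% of 414 with a match and 13.8% of 9999 without were higher. Lower were 21.7% and 26.8% of them. Outside both interferon lists, 20.1% of 378 with a match were higher and 23% lower. Of the 9955 without a match there, 13.7% were higher and 26.9% lower. Oas1a and Bst2, whose stretches are printed above, held 2 matches each and did not differ 2-fold, while Oasl2, Ifi44, Xaf1 and Ifit2 had no match in this window and were lower in progenitors. No match says only that these letters are not within this window.

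Cell type markers changed across the same fractions. Of 10 neutrophil markers measured, 6 were well above background in LT-HSC and 7 in ST-HSC, 9 in progenitors, and 10 in the Lin+ fraction, and their summed signal was 8.53, 8.06, 183 and 7964 times the array's 75th percentile. Of 10 B cell markers, 4, 4, 5 and 10 were well above background, with sums of 29.4, 34.1, 36.8 and 480, and Cd79a, Ms4a1, Pax5 and Ebf1 were so in Lin+ cells only. Monocyte markers summed to 11.9, 76.1, 189 and 208 over 9 genes, erythroid markers to 117, 39.2, 229 and 4712 over 9, and T and NK cell markers to 54.3, 89.1, 180 and 181 over 10. These sums are weighted to bright probes: 6, 5, 4 and 10 of the 10 T and NK cell markers were well above background, with median levels of -1.49, -3.05, -3.12 and 3.17, and 7 of 10 were higher in Lin+ cells than in progenitors. Plasmacytoid dendritic cell markers, of which Bst2 is also a listed gene, summed to 269, 306, 344 and 491 over 10, with Ccr9, Spib and Klk1 well above background in Lin+ cells only. Of these 10, 7, 6, 7 and 10 were well above background, with median levels of 0.09, 0.07, 0.35 and 4.45, and 6 were higher in Lin+ cells than in progenitors. Long-term stem cell markers summed to 239, 84.5, 47.1 and 3.93 over 10, all 10 of them were well above background in LT-HSC, and Fgd5, Hoxb5 and Mecom were so in no other fraction. Ly6a encodes Sca-1, the antigen used to sort both stem cell fractions, and is itself known to respond to interferon. Its level was 4.52 in LT-HSC and 3.12 in ST-HSC, 2.28 in progenitors, and 4.51 in the Lin+ fraction. Both stem cell fractions were sorted as Sca-1-positive and progenitors are described as Sca-1-negative, so Ly6a is no independent parallel to the listed genes. The part that cell mixture, or sorting on Sca-1, has in the differences was not tested.

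Gene span and probe choice were also checked. Genes of longer genomic span were lower in progenitors against ST-HSC over all genes, with medians of 0.42, 0.33, 0.19, 0.01 and -0.15 over 5 equal groups from the shortest span to the longest. The listed genes in those groups (4, 11, 9, 7 and 2) had medians of -0.66, -0.69, -1.36, -1.56 and -1.34, below all genes in each. Corrected for span, 20 of 33 were lower. For genes with a second probe well above background, 24 of 26 gene and comparison pairs had the same sign. The opposite 2, brighter probe first, were Herc6 in ST-HSC against LT-HSC (0.13 and -0.42) and Oas1a in Lin+ cells against progenitors (-0.06 and 0.13). Only 5 pairs were from progenitors against ST-HSC, and Zbp1 alone of these was called lower. The second probes of Ddx58, Xaf1 and Ifih1 were not well above background in progenitors, so the signs say little about the lower progenitor levels.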

How the data were processed

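Total RNA of 4 sorted fractions was amplified with spike-in controls and read with Cy3 on 1 Agilent array per fraction, per the labels' protocols. Per the file headers, the 4 arrays share 1 slide and 1 scan, which leaves no batch to compare. Values in the deposited scanner files are linear spot intensity, background-subtracted within each array by Agilent Feature Extraction (10.7.1.1 per the submitters' processing notes). The authors' deposited value table gives a linear ratio per probe, equal within 1% to that intensity divided by 1 constant per array for 100% of 55246 probes. The direction and centring are therefore known, the column medians were 0.0619, 0.063, 0.0704 and 0.0738, and the table served as an alternative.

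Control spots and outlier-flagged spots were left out, 55678 probes remained, and log2 intensity was scaled by subtracting each array's 75th percentile (192, 217, 137 and 230 intensity units from LT-HSC to Lin+ cells). From 40.9% to 45.9% of probes were well above background, and no spot was saturated. Of the probes, 26762 (48.1%) were named by accession through the RefSeq table of GRCm38.p6, and a gene was read by its brightest probe. The array uses another build, so only promoter coordinates are given. Dimmer values were raised to the array's lowest value well above background where they lay under it (-2.94, -3.39, -2.87 and -3.47), and differences that use them are bounds, written as at least N-fold. Where the value well above background was then not the larger, the difference was unresolved and entered as 0, also in the medians of all genes. The number of arrays limits precision. The submitters' files gave no mean-signal column, so normexp used the median signal (offset 50), in limma 3.58.1 under R 4.3.3. Other steps used Python 3.11.15 with pandas 2.3.3. Calling was tested beforehand on simulated data with spot error alone and every gene set well above background. The simulation held no spread between mice and added fold changes only to genes above the 75th percentile, so it does not cover dim genes.

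The genes and lists were chosen with earlier results of these data known. Every listed gene is accounted for, with the 4 largest and 4 smallest measured differences named per comparison, and up to 4 called genes of each other list. Some genes of these lists are not reported here.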

Additional observations from a re-analysis of the deposited data

How the results depend on the processing

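No paired analysis was possible because every fraction has a single array labelled replicate 1, so the groups share fewer than 2 replicate numbers and leaving out a replicate would leave no value. Of the 49 calls of listed genes, 0 turned direction under any of the 10 alternatives run. Calls lost numbered 12 with normexp background correction, 7 with spike-in scaling, 3 each with the median gene at 0 and with the span correction, 2 each with the percentile over detected probes, quantile normalization and the mean of a gene's probes, and 0 with the authors' table and without a filter. In progenitors against ST-HSC the number lower ranged from 15 to 26, and in Lin+ cells against progenitors the number higher from 11 to 23. The number of genes lowest on the progenitor array ranged from 24 to 30.

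Spike-in scaling moved the median of all genes to 0.33, -0.44, 0.26 and 0.12 in the order of the comparisons. With it the list's median was 0.0486 for ST-HSC against LT-HSC, -1.85 for progenitors against ST-HSC, 1.46 for Lin+ cells against progenitors and -0.0776 for Lin+ cells against LT-HSC. The median for progenitors against ST-HSC was -0.87 with normexp and -1.49 with the percentile over detected probes. That for Lin+ cells against progenitors was 1.19 with the median gene at 0 and 1.25 with the percentile over detected probes. The 1 gene higher in progenitors than in ST-HSC (Isg20) and the 1 gene lower in Lin+ cells than in progenitors (Gbp3) became 0 with the span correction, the median gene at 0, normexp, the percentile over detected probes, quantile normalization and spike-in scaling. Without a filter, 2 were lower in Lin+ cells than in progenitors. The 3 genes lower in ST-HSC than in LT-HSC became 1 with normexp and 0 with spike-in scaling. The cause of these shifts was not tested. Dim genes limit what can be read: the IFIT genes and Ifi44 rest on signal near background in progenitors. Herc6 (-1.91), Oas3 (-1.81) and Parp12 (-1.66) were also dim there, and each lost a call that uses the progenitor array with normexp.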
